A study of Rattus norvegicus with 17 samples.

Results

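The genes described here are Tgfbr1, Snai1, Twist1 and S100a4, a receptor of transforming growth factor beta (TGF-beta) and markers of the passage of endothelial cells towards a mesenchymal state. They were measured in endothelium of rat vessels around an arteriovenous fistula. Members were the array probes with a value in the deposited value table whose RefSeq accession maps to 1 of the 4 symbols. The 4 genes are among 2878 genes with a symbol and a value. They had 6 such probes among 9879 different probes with a value: 2 for Snai1 (NM_053805), 1 for Twist1 (NM_053530), 1 for Tgfbr1 (NM_012775) and 2 for S100a4 (NM_012618). The array carries 9 probes for these genes, and the other 3, 1 for Twist1 and 2 for Tgfbr1, have no value in that table. Every probe was kept apart, because the probes of a gene can disagree.

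In the fistula model the superficial epigastric vein was joined to the common femoral artery and tied off beyond the joint, and tissue was taken 13 to 14 days later. Endothelial cells of the vessel lining were cut out of sections of 10 µm by laser capture, 10 captures were pooled per sample, and 50 ng of RNA was amplified, labelled with the dye Cy5 and hybridized to 1 array per sample. Side branches of that vein that had narrowed (stenotic branch, n = 3) were under arterial flow after fistula surgery. The NIH vein (n = 5) is the main vein under arterial flow after the same surgery, with neointimal hyperplasia (NIH), a thickening of the inner wall. The femoral artery (n = 3) came from fistula animals and had no lesion. The venous-flow vein (n = 6) kept venous flow and had no lesion. Its source labels name a ligation operation and its descriptions name fistula surgery. All 17 samples are rat endothelium by their labels, with no strain, sex or age given, and no sample is from an animal without an operation. The series' design names 6 rats, while the 17 sample titles each carry a different number whose meaning is not stated. Whether samples share an animal is thus not settled. Where samples of the same group do, p-values over samples are too small. Where samples of different groups do, they are paired, and the fits do not use that. A captured sample with fewer cells of a type and one with less RNA per cell cannot be told apart.

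TGF-beta binds a receptor complex in which Tgfbr1, the type I receptor kinase, phosphorylates Smad proteins, which then act on target genes in the nucleus. Snai1 and Twist1 are transcription factors that drive the loss of cell junctions and the gain of mesenchymal traits in epithelia and, in endothelium, in what is called endothelial to mesenchymal transition. Snai1 binds DNA at E-boxes and represses junction genes, some cadherins among them. Twist1 is a basic helix-loop-helix factor that binds E-boxes as well. S100a4, also called fibroblast-specific protein, is a small calcium-binding protein used as a marker of fibroblasts and of cells in transition, and it is also made by macrophages and other leukocytes. In veins placed under arterial flow, this transition has been studied as a source of neointimal cells.

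The deposited data exist in a pair of forms, the scanner files of the 17 arrays and a normalized value table, and these disagree on which sample is which. The NIH vein arrays 1 to 5 are the same in both. Each of the other 12 scanner arrays has the ranks of another sample's table column: the stenotic branch arrays match table columns of venous-flow veins (1 to 3), as do those of the femoral artery (4 to 6), while the venous-flow vein arrays match columns of stenotic branches (arrays 1, 5 and 6) or femoral arteries (arrays 2 to 4). No label or header used here settles the assignment, so the main results of the members are given in both forms. Values are of the scanner files where the value table is not named with them, and these need not hold in the other form. The NIH vein against the other 12 arrays together is the split that both share. A further limit is the background: on 11 arrays, all but the NIH veins and stenotic branch 1, the local background of every spot is the average of that on 2 other arrays. On those arrays the signal is filled in the same way for 93.2% to 100% of the spots without a value in the table, and for at most 0.01% of the spots with one, which are those used here. Array medians of signal minus background lay between 28.5 intensity units in femoral artery 1 and 80.9 in NIH vein 3. Signals before normalization are not scaled for this brightness of the array. Precision is limited by how few arrays each group has. Levels below are log2 intensities after background correction with an offset of 50 and quantile normalization. Their lowest value is 5.65 and their median 6.12, and in the value table the lowest is 4.61 and the median 5.51.

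Of the 23 endothelial markers listed for the check of tissue, only Kdr and Sox18 have probes with a value, so defining markers such as Pecam1 and Cdh5 could not be read here. The receptor gene Kdr stood at 8.01 ± 0.82 in stenotic branches (SD, n = 3), 6.93 ± 0.32 in NIH veins (n = 5), 6.06 ± 0.21 in femoral arteries (n = 3) and 6.93 ± 0.75 in venous-flow veins (n = 6) in the scanner files. The 3 endothelial probes did not move together there. Their log2 differences ran from -1.51 to 1.95 in stenotic branch minus femoral artery, with 1 of 3 higher. In stenotic branch minus venous-flow vein they ran from -1.20 to 1.08, with 2 of 3 higher.

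The starts of Snai1, Twist1 and Tgfbr1 are shown because a probe of each of these 3 genes had a Pearson r of 0.740 or more with each of the others over the arrays. The windows are the 250 bases before the start in RefSeq's promoter set for the build GRCr8, plus strand, 5′ to 3′, with capitals on each match to the E-box letters CANNTG. All 4 genes matched that table.
Snai1, chr3:176667226-176667475: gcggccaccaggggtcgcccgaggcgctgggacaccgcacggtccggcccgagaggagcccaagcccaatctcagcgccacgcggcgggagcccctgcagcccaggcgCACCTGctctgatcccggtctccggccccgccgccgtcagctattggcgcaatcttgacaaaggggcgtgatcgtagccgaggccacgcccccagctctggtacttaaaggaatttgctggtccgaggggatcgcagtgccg
Twist1, chr6:56402059-56402308: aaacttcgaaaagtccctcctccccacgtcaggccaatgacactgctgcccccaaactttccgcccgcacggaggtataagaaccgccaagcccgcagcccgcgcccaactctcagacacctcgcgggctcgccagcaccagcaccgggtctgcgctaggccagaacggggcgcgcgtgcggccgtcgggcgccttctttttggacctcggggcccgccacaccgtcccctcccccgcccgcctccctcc
Tgfbr1, chr5:66449148-66449397: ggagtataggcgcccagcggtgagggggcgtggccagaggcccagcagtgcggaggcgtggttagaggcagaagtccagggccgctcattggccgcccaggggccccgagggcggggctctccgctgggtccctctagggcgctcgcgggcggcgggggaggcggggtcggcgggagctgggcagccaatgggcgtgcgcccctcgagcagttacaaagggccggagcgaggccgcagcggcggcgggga
On either strand, CANNTG occurs once in the Snai1 window, as CACCTG, which reads CAGGTG on the other strand, and it has 0 matches in the windows of Twist1, Tgfbr1 and S100a4. The CAGAC letters of Smad binding occur 2 times in the Twist1 window, not in capitals, and 0 times in the other 3 windows. Over all 33469 promoter windows of this length, 65.5% hold CANNTG, 15.9% hold CAGGTG and 42.9% hold CAGAC. The share of G and C was 69.6% for Snai1, 69.2% for Twist1, 75.6% for Tgfbr1 and 57.6% for S100a4, against a median of 51.2% over all windows. In the annotation, Snai1 lies at chr3:176667476-176671965, Twist1 at chr6:56402309-56404303, Tgfbr1 at chr5:66449348-66506371 and S100a4 at chr2:178388529-178390838, all on the plus strand. The Tgfbr1 window reaches 50 bases into the annotated gene. The exon or untranslated region that each probe targets was not analysed here.

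Tgfbr1, the kinase that passes the TGF-beta signal into the cell, was read by A_44_P703479. In the scanner files its level was 8.92, 6.13 and 5.88 in stenotic branches 1 to 3, and 5.87, 8.24, 6.21, 6.98 and 6.15 in NIH veins 1 to 5. It was 9.07, 10.27 and 10.60 in femoral arteries 1 to 3 and ran from 6.36 over a median of 9.67 to 10.82 in the 6 venous-flow veins. On these normalized levels every femoral artery lay above every stenotic branch and NIH vein, while the venous-flow veins overlapped with all 3 other groups. Before normalization femoral artery 1, at 124 intensity units, lay below NIH vein 2 at 333 and stenotic branch 1 at 295. The order of the means was femoral artery (9.98 ± 0.81), venous-flow vein (9.06 ± 1.74), stenotic branch (6.98 ± 1.69) and NIH vein (6.69 ± 0.96, SD). The first 2 and the last 2 of that order differed by less than their spread. Levels in NIH veins and stenotic branches come near the lowest of the scale, 5.65, so the size of the differences depends on the offset. In NIH vein 5 the signal was 57.6 intensity units, below the median of 218 of its negative control spots. The log2 difference of NIH veins from femoral arteries was -3.29 ± 0.97 (SE), with an adjusted p of 0.076 in limma, and that of stenotic branches from femoral arteries was -3.00 ± 1.09 (adjusted p = 0.136). Against venous-flow veins it was -2.08 ± 0.94 in stenotic branches (adjusted p = 0.278) and -2.37 ± 0.81 in NIH veins (adjusted p = 0.186). None of these passed. Without venous-flow vein 5, the lowest of its group, the adjusted p of NIH vein minus venous-flow vein was 0.046 at -2.90. That of NIH vein minus femoral artery was 0.037 without the same array, 0.048 without NIH vein 2, 0.040 with only the groups compared in the fit and 0.041 among the probes in the upper part by mean level. Over all fits without 1 array, the limma adjusted p reached 0.376 in NIH vein minus venous-flow vein and 0.164 in NIH vein minus femoral artery. Without venous-flow vein 5, 284 of all probes were called in the first of these, against 4 with every array. In the second 555 were called, against 229.

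With the columns of the value table, Tgfbr1 stood at 9.09, 5.86 and 10.14 in stenotic branches and at 5.13, 8.10, 5.64, 6.65 and 5.55 in NIH veins. It was 7.36, 10.20 and 10.80 in femoral arteries and ran from 5.15 over a median of 8.91 to 10.57 in venous-flow veins. In this form stenotic branches spanned nearly the whole range, and the difference of stenotic branches from venous-flow veins was 0.14 ± 1.29. That of NIH veins from femoral arteries was -3.24 ± 1.34 (limma adjusted p = 0.449).

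Snai1 was read by a pair of probes that did not follow each other. Probe A_44_P328087 stood at 6.84, 6.78 and 7.01 in stenotic branches, at 7.07, 7.69, 7.04, 6.73 and 6.78 in NIH veins and at 9.01, 8.79 and 8.45 in femoral arteries. In venous-flow veins it ran from 7.22 over a median of 8.30 to 9.09. Every stenotic branch lay below every femoral artery and every venous-flow vein, and every NIH vein lay below every femoral artery. By mean, femoral artery (8.75 ± 0.28) and venous-flow vein (8.24 ± 0.68) came first and differed by less than their spread, and NIH vein (7.06 ± 0.38) and stenotic branch (6.87 ± 0.12, SD) came last and likewise. This probe fell in NIH veins relative to femoral arteries by 1.69 ± 0.34 on the log2 scale (limma adjusted p = 0.023). It fell in stenotic branches relative to femoral arteries by 1.88 ± 0.38 (limma adjusted p = 0.028). No fold is given, since the offset shapes levels this low: the signal of stenotic branch 1 was 61.9 intensity units, below the 95th percentile of its negative control spots, 83.9. That of NIH vein 5 was 105 intensity units, below even the median of its negative control spots, 218. Against venous-flow veins the differences of -1.37 ± 0.33 in stenotic branches (adjusted p = 0.076) and -1.18 ± 0.28 in NIH veins (adjusted p = 0.103) did not pass.

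The Snai1 calls rest on few arrays and on the scaling. Before normalization the signal of femoral artery 1 was 118 intensity units, below NIH veins 1 to 3 at 224, 221 and 231. The separation of NIH veins from femoral arteries thus holds for normalized levels only. Femoral artery 1 is also the array with the lowest median signal, 28.5 intensity units, against 67.8, 51.6 and 80.9 on NIH veins 1 to 3. In NIH vein minus femoral artery, the adjusted p was 0.064 without NIH vein 4, 0.156 without femoral artery 1 and 0.060 without femoral artery 3. In stenotic branch minus femoral artery it was 0.088 without stenotic branch 2, 0.106 without stenotic branch 3, and 0.126, 0.055 and 0.059 without femoral arteries 1, 2 and 3. Without venous-flow vein 5, both Snai1 differences from venous-flow veins passed, at -1.57 in stenotic branches (adjusted p = 0.014) and -1.38 in NIH veins (adjusted p = 0.021). Over all fits without 1 array, their limma adjusted p reached 0.277 and 0.276. Under median scaling in place of quantile normalization the difference from femoral arteries was -1.53 in stenotic branches (adjusted p = 0.176) and -1.04 in NIH veins (adjusted p = 0.114).

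In the value table, A_44_P328087 stood at 8.06, 6.94 and 8.70 in stenotic branches, at 6.76, 7.49, 6.73, 6.34 and 6.40 in NIH veins and at 7.54, 9.01 and 8.27 in femoral arteries, and ran from 6.40 over a median of 7.51 to 8.93 in venous-flow veins. The NIH veins again lay below all femoral arteries, at a difference of -1.53 ± 0.62 (adjusted p = 0.449 in limma). Stenotic branches overlapped with each of the other groups there, and their difference from femoral arteries was -0.37 ± 0.69 (adjusted p = 1.00).

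The second Snai1 probe, A_44_P899293, stood at 7.56, 8.56 and 5.94 in stenotic branches, at 5.94, 8.03, 10.06, 7.62 and 8.10 in NIH veins and at 6.85, 7.36 and 7.23 in femoral arteries of the scanner files. In venous-flow veins it ran from 6.22 over a median of 6.65 to 8.62. All 4 groups overlapped, and the NIH veins spanned the whole range of the probe. Its differences from femoral arteries were 0.20 ± 0.91 in stenotic branches and 0.80 ± 0.82 in NIH veins (limma adjusted p 0.911 and 0.558), opposite in sign to those of the first probe. In the value table it stood at 5.69, 5.96 and 5.65 in stenotic branches, below the femoral arteries at 8.51, 8.22 and 6.50, with a difference of -1.98 ± 0.94 (adjusted p = 1.00). Over the 17 arrays the 2 Snai1 probes had a Pearson r of -0.20 with each other.

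Twist1 was read by A_44_P330417 at levels near the lowest of the scale, so that its differences depend on the offset and no fold is given. It stood at 5.86, 5.87 and 5.94 in stenotic branches, at 5.94, 6.01, 5.89, 5.86 and 5.92 in NIH veins and at 7.01, 6.41 and 6.27 in femoral arteries. In venous-flow veins it ran from 6.09 over a median of 6.46 to 6.73. No stenotic branch and no NIH vein reached the lowest femoral artery or venous-flow vein on this scale. Before normalization femoral artery 1, at 36.9 intensity units, lay below 4 of the 5 NIH veins, and so did venous-flow vein 3, at 38.5. In NIH vein 5 the signal was 47.3 intensity units, below the median of 218 of its negative control spots. The differences from femoral arteries were -0.67 ± 0.19 in stenotic branches (adjusted p = 0.079) and -0.64 ± 0.17 in NIH veins (adjusted p = 0.058), and those from venous-flow veins were -0.53 ± 0.16 in stenotic branches (adjusted p = 0.141) and -0.50 ± 0.14 in NIH veins (adjusted p = 0.141, limma throughout). None passed. Without venous-flow vein 5 the difference of NIH veins was called, at -0.57 against venous-flow veins (adjusted p = 0.046) and -0.64 against femoral arteries (adjusted p = 0.037). It was also called against femoral arteries without NIH vein 2 (adjusted p = 0.049), among the probes in the upper part by mean level (adjusted p = 0.044) and with plain background subtraction, at -0.90 (adjusted p = 0.045). Over all fits without 1 array, its limma adjusted p reached 0.315 against venous-flow veins and 0.235 against femoral arteries. Without venous-flow vein 5, 284 and 555 of all probes were called in these comparisons.

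In the value table Twist1 stood at 5.80, 5.47 and 6.26 in stenotic branches, at 5.24, 5.35, 5.16, 5.11 and 5.21 in NIH veins and at 5.53, 6.34 and 6.17 in femoral arteries, and ran from 5.11 over a median of 5.49 to 6.69 in venous-flow veins. The NIH veins lay below all femoral arteries and below all stenotic branches. These differences were -0.80 ± 0.31 from femoral arteries (adjusted p = 0.449) and 0.63 ± 0.31 for stenotic branches minus NIH veins (adjusted p = 0.687), and neither passed in limma.

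S100a4 was read by A_43_P11489 and A_44_P1060286, which moved together (Pearson r 0.868 over 17 arrays). In the scanner files A_43_P11489 stood at 11.11, 13.03 and 12.10 in stenotic branches, at 13.12, 11.78, 12.14, 11.99 and 12.43 in NIH veins and at 10.56, 11.83 and 10.69 in femoral arteries. In venous-flow veins it ran from 8.44 over a median of 9.88 to 12.79. Venous-flow vein 2, at 12.79, lay above all NIH veins but 1, and the other 5 venous-flow veins lay below all NIH veins. The means followed the order NIH vein (12.30 ± 0.52), stenotic branch (12.08 ± 0.96), femoral artery (11.03 ± 0.70) and venous-flow vein (10.26 ± 1.54, SD), with neighbours that differed by less than their spread except for stenotic branch and femoral artery, whose ranges still overlapped. Against venous-flow veins the differences were 1.82 ± 0.74 in stenotic branches (adjusted p = 0.235) and 2.04 ± 0.63 in NIH veins (adjusted p = 0.162), neither called in limma. Without venous-flow vein 2 the difference of NIH veins was 2.54 (adjusted p = 0.048), and over all fits without 1 array its limma adjusted p reached 0.335.

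The other S100a4 probe, A_44_P1060286, stood at 8.22, 8.86 and 8.75 in stenotic branches, at 9.18, 8.32, 8.10, 8.52 and 9.05 in NIH veins and at 7.89, 8.97 and 8.87 in femoral arteries, and ran from 6.57 over a median of 7.83 to 8.77 in venous-flow veins. The 3 groups other than venous-flow vein had means within 8.58 and 8.64, and venous-flow vein averaged 7.64 ± 0.90 (SD, n = 6). Its differences from venous-flow veins were 0.96 ± 0.45 in stenotic branches (adjusted p = 0.289), 0.99 ± 0.39 in NIH veins (adjusted p = 0.220) and 0.94 ± 0.45 in femoral arteries (adjusted p = 0.863), none of them called in limma.

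The S100a4 difference of stenotic branches turns round with the assignment. In the value table A_43_P11489 stood at 8.32, 9.26 and 9.92 in stenotic branches, below all 5 NIH veins, at 13.12, 11.77, 12.14, 11.98 and 12.43, and below all 6 venous-flow veins, which ran from 10.53 over a median of 11.45 to 13.03. Femoral arteries had 12.78, 11.22 and 9.76. A_44_P1060286 stood at 6.14, 6.13 and 7.57 in stenotic branches, at 9.11, 8.19, 7.95, 8.41 and 8.98 in NIH veins, at 8.68, 8.13 and 7.72 in femoral arteries, and ran from 7.71 over a median of 8.71 to 8.89 in venous-flow veins, so that stenotic branches lay below every other array. For the 2 probes the differences of stenotic branches from NIH veins were -3.12 ± 0.65 and -1.91 ± 0.38 (adjusted p 0.066 and 0.055), and those from venous-flow veins were -2.37 ± 0.63 and -1.87 ± 0.37 (adjusted p 0.246 and 0.057). None passed in limma. In the scanner files the differences of stenotic branches from NIH veins were -0.21 ± 0.76 and -0.03 ± 0.47.

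**Figure D1:**
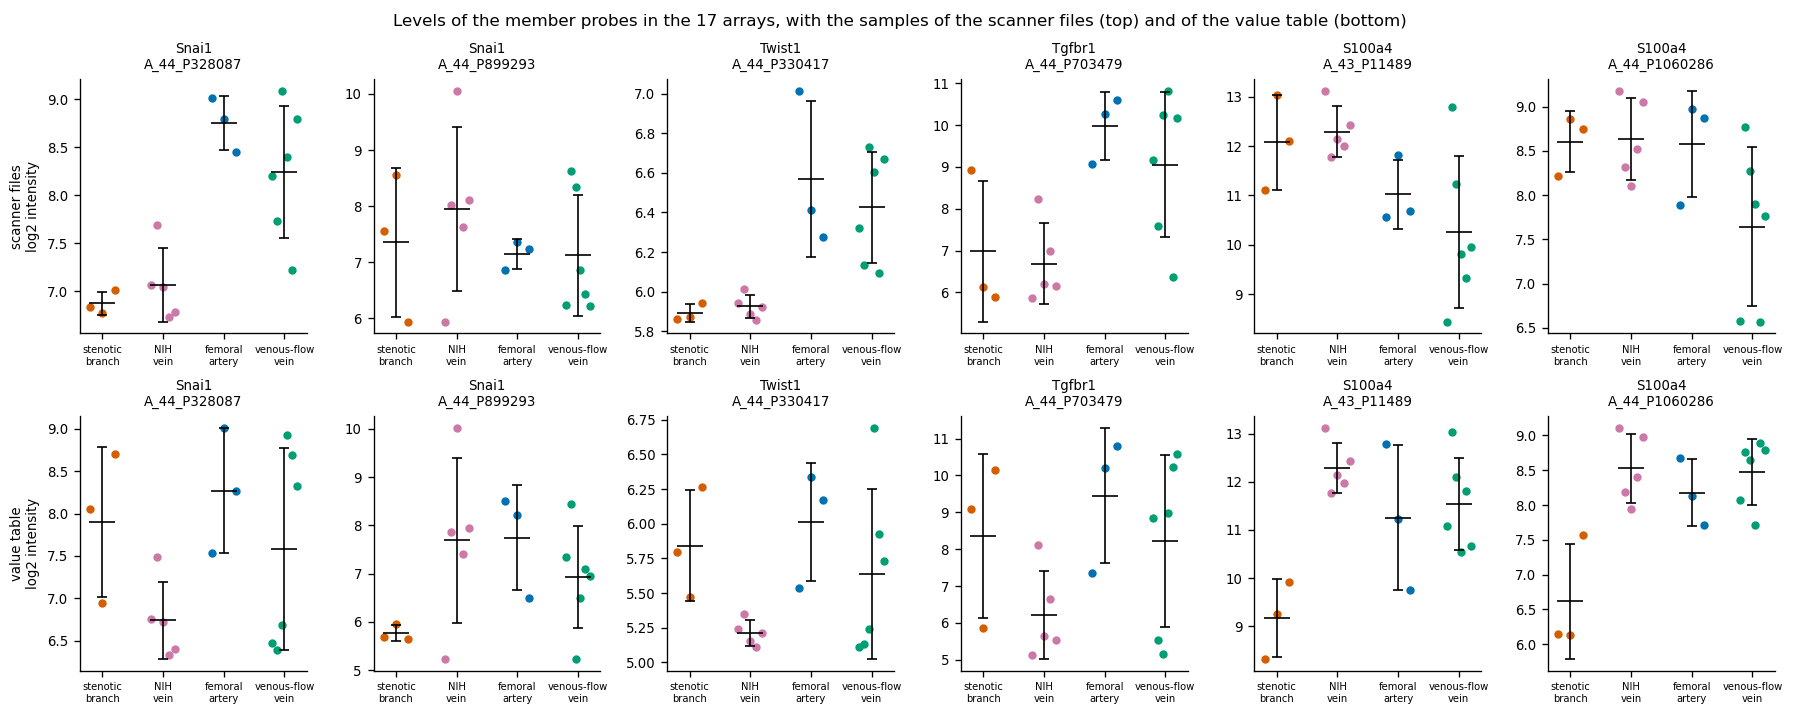
Log2 intensity of each member probe (y axis) by group (x axis), 1 point per array with the mean (long bar) and SD (short bars), for the sample assignment of the scanner files in the upper row and of the value table in the lower row. In the upper row the stenotic branches and NIH veins of Snai1 A_44_P328087 lie below all femoral arteries, and in the lower row the stenotic branches of S100a4 A_43_P11489 lie below all NIH veins.

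The levels are shown by array in the plot of member probes by group. The NIH vein against the other 12 arrays is the comparison that uses the same arrays in both forms. The other 12 mix stenotic branches, femoral arteries and venous-flow veins, and 11 of them have an averaged background, as no NIH vein has. A difference of the thickened main vein and one of the background cannot be told apart in this split. Tgfbr1 had a log2 difference of -2.08 ± 0.83 in the scanner files and -2.35 ± 0.94 in the value table, Snai1 A_44_P328087 one of -0.96 ± 0.39 and -1.09 ± 0.44, and Twist1 one of -0.40 ± 0.16 and -0.57 ± 0.23. S100a4 A_43_P11489 had 1.39 ± 0.62 and 1.41 ± 0.63, A_44_P1060286 had 0.52 ± 0.38 and 0.59 ± 0.44, and Snai1 A_44_P899293 had 0.76 ± 0.56 and 0.85 ± 0.66. Of the 6 probes, 0 were called in limma in either form, with adjusted p from 0.366 to 0.649 in the scanner files. Of all probes, 0.132% were called there and 0.0911% in the value table. At an unadjusted p under 0.05 there were 4 of the 6 in each form, against 12.5% of all probes in the scanner files and 12.7% in the value table. The 95% interval of the difference was -3.84 to -0.32 for Tgfbr1 and 0.08 to 2.70 for S100a4 A_43_P11489 in the scanner files. No member had NIH veins that stood clear of all other arrays, which 0.101% of all probes did.

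The remaining comparisons set the groups against each other in pairs. In NIH vein minus femoral artery 1 of the 6 probes was called, Snai1 A_44_P328087, where 2.32% of all probes were called and 0.759% were called lower, and 3 had an unadjusted p under 0.05 (24.8% of all probes). In stenotic branch minus femoral artery the same probe was the 1 called, where 1.86% of all probes were called and 0.668% called lower, and again 3 had an unadjusted p under 0.05 (23% of all probes). These comparisons share the femoral arteries. On normalized levels NIH veins lay wholly below femoral arteries for 3 of the 6 probes (Snai1 A_44_P328087, Twist1 and Tgfbr1), as did 6.05% of all probes. Stenotic branches did so for the same 3, as did 10.6% of all probes.

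Against venous-flow veins 0 of the 6 probes were called in limma, both in stenotic branches, where 0.405% of all probes were called, and in NIH veins, where 0.0405% were. At an unadjusted p under 0.05 there were 5 of the 6 in each, against 17.2% of all probes for stenotic branches and 16.2% for NIH veins. On normalized levels stenotic branches lay wholly below venous-flow veins for 2 of the 6 probes (4.86% of all probes), and NIH veins for Twist1 alone (0.233% of all probes). Before normalization the NIH veins and venous-flow veins overlapped for Twist1. In stenotic branch minus NIH vein limma called 0, at an unadjusted p under 0.05 there were 0, and 0 had groups that stood apart (0.0911%, 3.59% and 2.06% of all probes). The same counts of 0 were found in femoral artery minus venous-flow vein (0%, 4.92% and 2.22% of all probes).

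In the table's columns, 0 of the 6 probes were called in limma in any comparison. The share of all probes called was 0.283% in stenotic branch minus NIH vein, 0.192% in stenotic branch minus femoral artery, 0.172% in stenotic branch minus venous-flow vein and 0% in the 3 that set NIH veins or femoral arteries against a site without a lesion. At an unadjusted p under 0.05 there were 3 in stenotic branch minus NIH vein (7.24% of all probes) and 3 in NIH vein minus femoral artery (10.8%). Stenotic branch minus femoral artery had 2 (4.39%), as had stenotic branch minus venous-flow vein (6.32%), and NIH vein and femoral artery had 0 against venous-flow vein (6.3% and 1.61%), with 0 probes whose groups stood apart (0.425% and 1.05%). NIH veins lay wholly below femoral arteries for 2 probes (2.24% of all probes). Stenotic branches lay wholly below NIH veins for 2 (4.87%), below venous-flow veins for 2 (2.42%) and below femoral arteries for 2 (4.89%), and above NIH veins for 1 (2.91%).

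**Figure D2:**
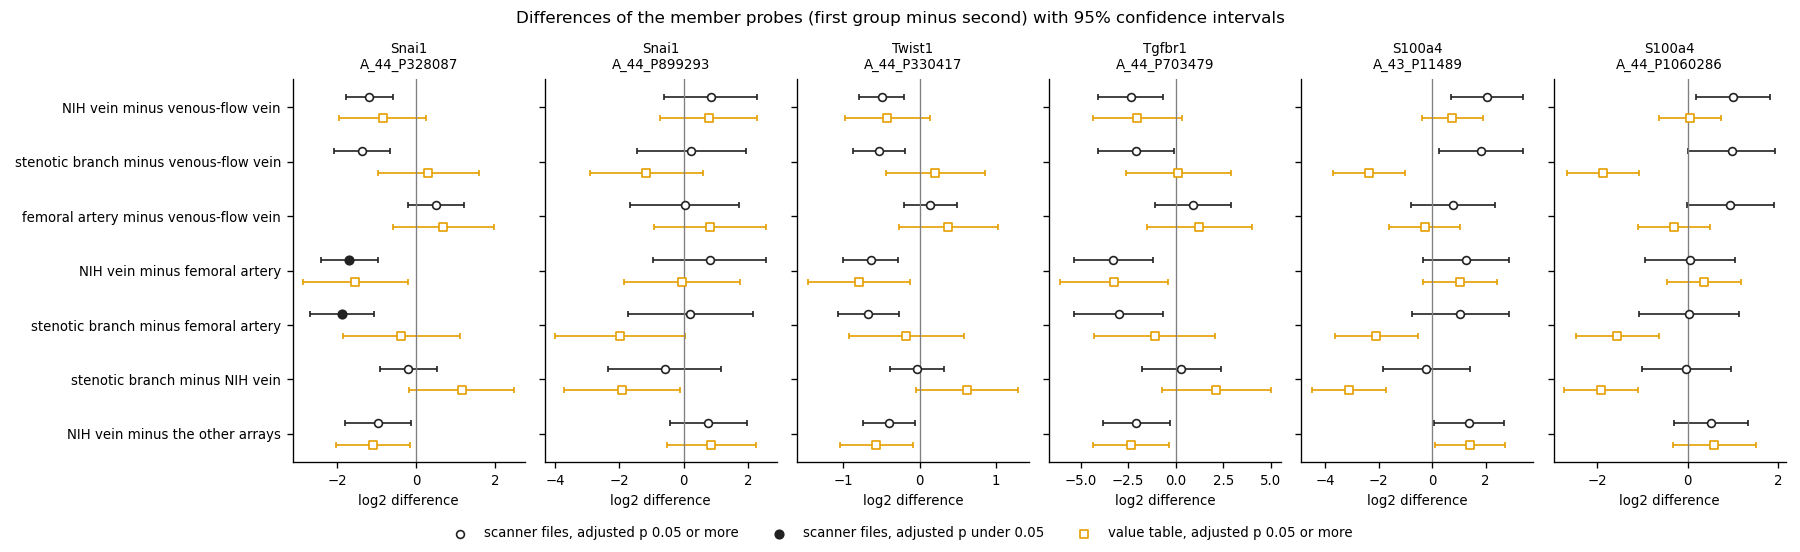
Log2 difference (x axis, first group minus second) of each member probe in the 7 comparisons (rows), with 95% confidence intervals; circles are the scanner files, filled where the adjusted p is under 0.05, and squares the value table. Both filled circles belong to Snai1 A_44_P328087, at -1.69 and -1.88, and in the bottom row both forms lie close together for every probe.

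The plot of differences sets both forms side by side. Probes of 3 of the genes were correlated over the arrays. Snai1 A_44_P328087 had a Pearson r of 0.934 with Twist1 and 0.848 with Tgfbr1, and Twist1 had one of 0.740 with Tgfbr1, over 17 arrays. These are descriptions of how the arrays line up and do not depend on the sample names. The arrays low in all 3 were the 5 NIH veins and the stenotic branches of the scanner files, except that stenotic branch 1 had 8.92 for Tgfbr1 and NIH vein 2 was the highest of its group for each. Venous-flow vein 5 was low as well, at 7.22, 6.09 and 6.36 for Snai1 A_44_P328087, Twist1 and Tgfbr1. Venous-flow vein 2 lay near the low arrays, at 7.74, 6.14 and 7.58. The femoral arteries and the other 4 venous-flow veins, which were higher in each of the 3 than these, all have an averaged background. Stenotic branches 2 and 3, whose background is averaged too, had 6.78 and 7.01 for Snai1 A_44_P328087 and 5.87 and 5.94 for Twist1, within the range of the NIH veins. The part of the averaged background in these differences was not tested.

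Each of these 3 profiles was shared by many other probes. At a Pearson r above 0.9, a bound chosen after seeing the data, Snai1 A_44_P328087 was matched by 139 probes, or 1.41% of all, Twist1 by 173 (1.75%) and Tgfbr1 by 217 (2.20%). The median over all 9879 probes was 5 such matches, the upper quartile 31 and the highest 231, and 0.334% of probes had more matches than Tgfbr1. The other 3 member probes had 0.

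Among probes with a symbol, those most like Snai1 A_44_P328087 were Adra2a (Pearson r 0.998), Grb7 (0.997) and Ndufv1 (0.997), and the least like were Efnb1 (-0.900), Tmem248 (-0.900) and Apeh (-0.877). The second Snai1 probe was most like Ndrg4 (0.833), Sdc2 (0.802) and P3h1 (0.788) and least like Ccdc127 (-0.718). Twist1 was most like Cnrip1 (0.974), Notch2 (0.970) and Uncx (0.970) and least like Plp2 (-0.861). Tgfbr1 was most like Slc44a4 (0.990), Ly6i (0.988) and Olr1092 (0.987), and least like the ribosomal protein genes Rplp1 (-0.934) and Rps2 (-0.930). S100a4 A_43_P11489 was most like Hbb-b1 (0.795), Prrc1 (0.790) and Pabpc1 (0.787) and least like Ppp3ca (-0.756). S100a4 A_44_P1060286 was most like Fn1 (0.744), Spp1 (0.729) and Gapdh (0.704) and least like G0s2 (-0.853), Ackr3 (-0.845) and Tf (-0.826). Each r is over the same 17 arrays, which share the scale and the normalization.

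**Figure D3:**
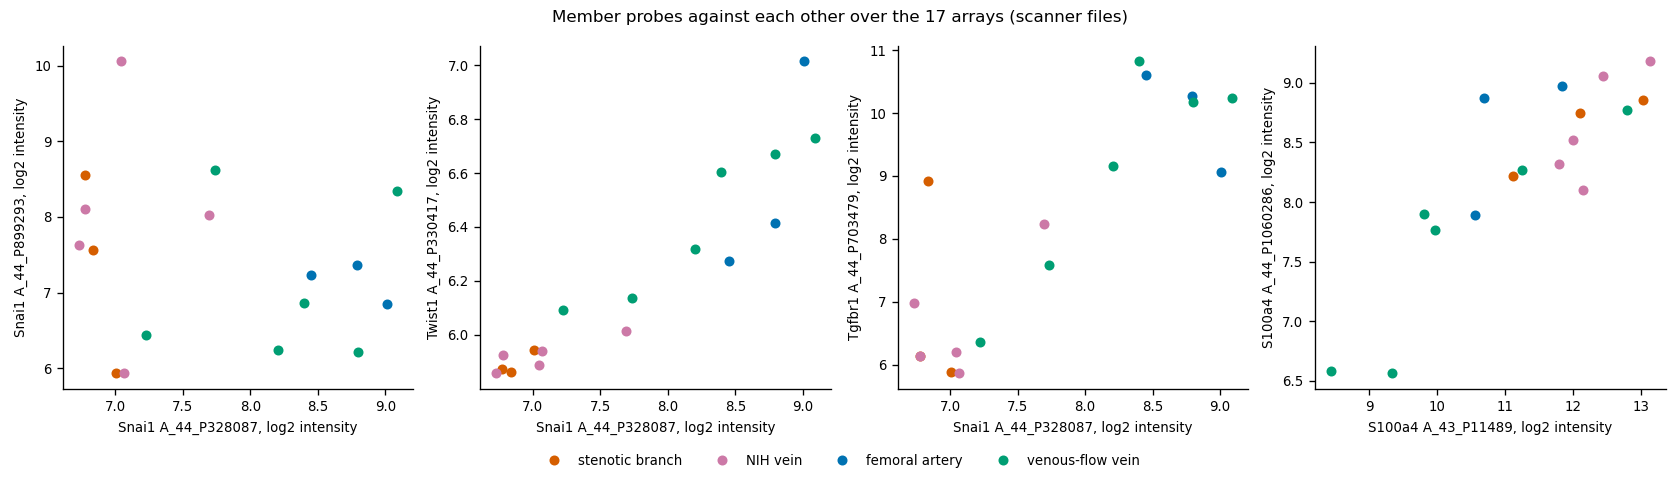
Log2 intensity of pairs of member probes over the 17 arrays of the scanner files, 1 point per array, coloured by group. Both Snai1 probes do not line up (r -0.20), Snai1 A_44_P328087 lines up with Twist1 (0.934) and Tgfbr1 (0.848), and so do the S100a4 probes (0.868).

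The plot of probe pairs shows these relations. How far each probe stands out from spots that match no rat gene could be read on the 6 arrays whose background is not averaged, against the 314 negative control spots of each. Both S100a4 probes exceeded the 95th percentile of those spots on 6 of 6 arrays, with signals above background from 1170 to 10342 intensity units for A_43_P11489 and from 185 to 1096 for A_44_P1060286. Snai1 A_44_P328087 did so on 4 arrays, A_44_P899293 on 5, Tgfbr1 A_44_P703479 on 5 and Twist1 A_44_P330417 on 4, the last with signals from 26.7 to 57.0. NIH vein 5 stands apart, with a median of 218 intensity units over its negative controls, against 4.20 to 7.43 on the other 5 arrays. On it, none of these Snai1, Tgfbr1 and Twist1 probes exceeded the 95th percentile, 415 intensity units. Of the probes without a value in the table, Twist1 A_44_P200042 passed on 1 array, and Tgfbr1 A_43_P11556 on 2 and A_44_P640828 on 0.

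The pathway was described by lists, which include the members: both Snai1 probes and Twist1 are 3 of the 5 probes of transition transcription factors, Tgfbr1 is 1 of the 4 of receptors, and S100a4 is among the S100 family and the mesenchymal markers. Their counts and medians are therefore not separate from the values above. Of 13 Smad proteins and partners listed, 0 have a probe with a value. In NIH vein minus the other 12 arrays, 2 of 3 probes of ligands were higher (median log2 difference 0.01), 3 of 4 of receptors (0.03) and 5 of 8 of inhibitors and latency proteins (0.27). The 15 probes of TGF-beta response genes included 13 that were higher (median 0.30), and the 14 of mesenchymal markers likewise 13 (median 0.32), where 54.3% of all probes were higher and their median was 0.01. These counts were the same in the value table, with medians of 0.38 and 0.36. It splits the same arrays in the same way here and is no separate check. The 2 lists share genes such as Col1a2 and Fn1. Of the 5 probes of transition transcription factors 2 were higher (median -0.32), the S100 family had 3 of 7 (median -0.02), and 0 probes of any list were called in limma. Ccn2, a matrix-associated growth factor that TGF-beta raises, averaged 8.90 in NIH veins and 7.07 in the other arrays, a difference of 1.83 ± 0.36 (adjusted p = 0.064). Fn1, the matrix protein fibronectin, had a difference of 2.15 ± 0.88 with A_44_P681660 (adjusted p = 0.366) and 0.51 ± 0.29 with A_44_P210568 (adjusted p = 0.517).

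Against femoral arteries in the scanner files, probes of 4 genes of the pathway and vessel lists other than the members were called. Col1a2, a chain of type I collagen, rose in stenotic branches by 4.39 ± 0.83 (limma adjusted p = 0.024) and in NIH veins by 4.28 ± 0.74 (adjusted p = 0.016), and was the 1 called of 15 response probes in each. Those values are of A_43_P12783; the other Col1a2 probe, A_44_P458851, had differences of 0.58 and 0.36, not called. In NIH veins Thy1, a surface protein of fibroblasts and other stromal cells, rose by 0.99 ± 0.22 (adjusted p = 0.032), and Grem1, an antagonist of bone morphogenetic proteins, by 1.09 ± 0.25 (adjusted p = 0.042). In stenotic branches Kdr, a receptor of vascular endothelial growth factor and the 1 higher of 3 endothelial probes, rose by 1.95 ± 0.46 (adjusted p = 0.047). In the value table none of these was called in limma. There, Ccn2 fell in stenotic branches relative to NIH veins by 2.90 (adjusted p = 0.037), the 1 call among the lists. List medians of stenotic branch minus venous-flow vein differ in sign between forms: 0.55 in the scanner files and -0.63 in the value table for mesenchymal markers, 0.19 and -0.27 for response genes, and -0.73 and 0.32 for transition transcription factors.

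Markers of leukocytes moved with the stenotic branches of the scanner files. Of 8 probes of macrophage and myeloid markers, 7 were higher in stenotic branches than in venous-flow veins (median 0.84), against 53.7% of all probes, and 2 were called, against 0.405% of all probes: Tyrobp at 2.22 ± 0.33 (limma adjusted p = 0.0075) and Coro1a at 1.34 ± 0.21 (adjusted p = 0.0092). The same genes were called against femoral arteries (2 of 8), and Tyrobp against NIH veins (1 of 8, limma adjusted p = 0.034). The count of higher probes was not particular to stenotic branches. Femoral arteries also had 7 of 8 higher than venous-flow veins (median 0.25, against 53.9% of all probes). NIH veins had 6 of 8 (median 0.10, against 57.0%), with 0 called in each. Tyrobp, an adaptor protein of myeloid receptors, averaged 9.35 ± 1.02 in stenotic branches, 7.17 ± 0.24 in NIH veins, 7.25 ± 0.18 in femoral arteries and 7.13 ± 0.36 in venous-flow veins (SD). The mean level of the 8 probes on an array lay between 7.34 and 8.15 in stenotic branches, 6.51 and 7.13 in NIH veins, 6.75 and 7.05 in femoral arteries and 6.40 and 7.15 in venous-flow veins. In the value table the median difference of the list was -0.96 for the same comparison, with 0 of 8 higher. S100a4 is made by such cells as well, and their part in its levels was not tested. In NIH vein minus the other 12 arrays the median was -0.18 for myeloid markers (2 of 8 higher), 0.01 for smooth muscle (3 of 6), 0.13 for fibroblasts (1 of 2), 0.11 for lymphocytes (1 of 1), -0.04 for red cells and platelets (3 of 6) and -0.11 for endothelium (0 of 3, and 0.12 under median scaling).

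**Figure D4:**
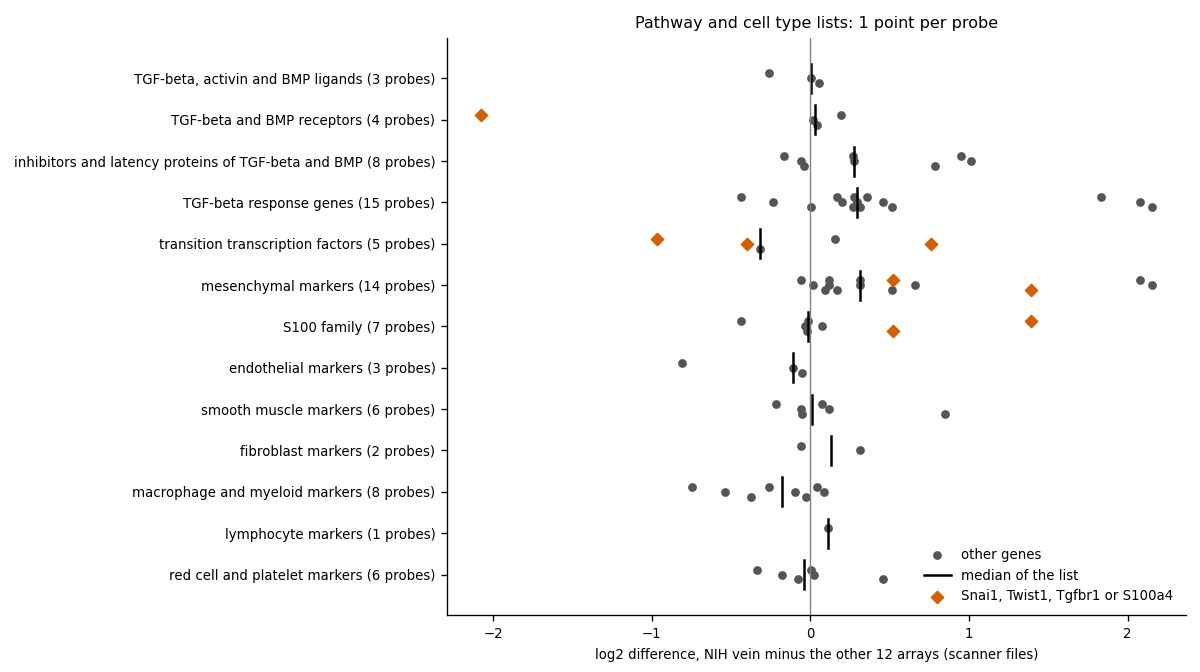
Log2 difference of NIH veins minus the other 12 arrays in the scanner files (x axis) for each probe of the pathway and cell type lists (rows); diamonds are the member probes and bars the list medians. Response genes and mesenchymal markers have medians of 0.30 and 0.32, and Tgfbr1 lies at -2.08 among receptors with a median of 0.03.

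The plot of lists shows every probe behind these medians.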

How the data were processed

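RNA of 17 samples was hybridized to 1 single-colour array each. The scanner files hold the mean intensity and the mean background intensity of each spot as the authors deposited them, not normalized, per the file headers; 11 arrays hold values averaged from other arrays. No header or label used here names the scanner or its software. The authors deposited a value table of log2 values for 10000 of 41372 gene probe spots (9879 probes), quantile normalized as its columns show. How those spots were selected is not stated in what was used here.

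Signal at these spots was corrected with limma 3.58.1 in R 4.3.3 (normexp, offset 50), log2 transformed, quantile normalized and averaged per probe. Of the spots 31.2% matched a symbol through RefSeq accessions. One limma model with 4 group means was fitted to all 17 arrays, and a model of 2 groups for NIH veins against the other 12. P-values are 2-sided with Benjamini-Hochberg adjustment over 9879 probes, and a probe was called at an adjusted p under 0.05. Errors are the SD over the arrays of a group or the SE of a difference, as marked. The value table was fitted in the same way with its own columns.

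Named genes were every member probe, from each list up to 3 called probes per comparison by p or else up to 2 with the smallest p, and for each member the 3 probes with a symbol of highest and lowest Pearson r. Members, lists and tests were chosen with earlier results of these data known. The text gives a selection of them. A result that this rule names is not reported here. Whether replicate numbers pair samples was checked: correlations of equally numbered arrays, with group means removed, ran from -0.609 to 0.321 over 20 pairs, and the numbers were not used as pairs. The method was tested on simulated data. Other background corrections, median scaling, a filter on dim probes, fewer samples in the fit, a replicate block and leaving out each array were the alternatives. Python 3.11.15, pandas 2.3.3, numpy 2.4.6 and matplotlib 3.10.9 read tables and drew plots.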

Additional observations from a re-analysis of the deposited data

How the results depend on the processing

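Called probes depended on the setting, and the cause was not tested. NIH vein minus venous-flow vein had 4 called probes, and 0 with the value table, 16 under median scaling, 9 in the upper part by mean level, 2 with only the groups compared, and 1 to 284 when 1 array was left out. Stenotic branch minus venous-flow vein had 40, and 17 with the value table, 87 with background subtracted, 5 under median scaling, 71 in the upper part, 88 with only the groups compared, and 8 to 179 without 1 array. NIH vein minus femoral artery had 229, and 0 with the value table, 97 with no background correction, 51 under median scaling, 652 in the upper part, and 0 to 555 without 1 array. Stenotic branch minus femoral artery had 184, and 19 with the value table, 1 under median scaling, 59 with only the groups compared, and 1 to 533 without 1 array. Stenotic branch minus NIH vein had 9, and 28 with the value table, 3 with background subtracted, 3 under median scaling, 0 with only the groups compared, and 1 to 11 without 1 array. NIH vein minus the other arrays had 13, and 5 with no background correction, 31 under median scaling, 6 in the upper part, and 3 to 26 without 1 array. Femoral artery minus venous-flow vein had 0 under every alternative run. The replicate block left 0, 1, 0, 1, 1 and 0 called probes in these comparisons, in the order just given without femoral artery minus venous-flow vein. Whether equally numbered samples are paired is not settled. With this block the Snai1 A_44_P328087 difference was -1.48 for NIH vein minus femoral artery (limma adjusted p = 0.150) and -1.88 for stenotic branch minus femoral artery (adjusted p = 0.070).

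Apart from leaving out 1 array, member differences that changed sign did so mostly with the value table (14 of 42). For stenotic branch minus venous-flow vein they became 0.32 (Snai1 A_44_P328087), -1.16 (Snai1 A_44_P899293), 0.20 (Twist1), 0.14 (Tgfbr1), -2.37 and -1.87 (S100a4). For femoral artery minus venous-flow vein they became -0.28 and -0.30 (S100a4), for NIH vein minus femoral artery -0.048 (Snai1 A_44_P899293), for stenotic branch minus femoral artery -1.98 (Snai1 A_44_P899293), -2.09 and -1.56 (S100a4), and for stenotic branch minus NIH vein 1.16 (Snai1 A_44_P328087) and 0.63 (Twist1). Snai1 A_44_P899293 in femoral artery minus venous-flow vein turned to -0.13 with no background correction, -0.037 under median scaling and -0.40 with the replicate block, which also gave -0.20 in stenotic branch minus venous-flow vein. Twist1 turned to -0.011 in femoral artery minus venous-flow vein with no background correction and to 0.13 in stenotic branch minus NIH vein under median scaling.

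Leaving out 1 array reversed 21 of 714 member differences. Their ranges were -0.29 to 0.25 (S100a4 A_44_P1060286, NIH vein minus femoral artery), -0.15 to 0.33 (Snai1 A_44_P899293) and -0.082 to 0.29 (Twist1) in femoral artery minus venous-flow vein, -0.32 to 0.22 (S100a4 A_44_P1060286) and -0.40 to 0.91 (Snai1 A_44_P899293) in stenotic branch minus femoral artery, and -0.37 to 0.94 (Snai1 A_44_P899293) in stenotic branch minus venous-flow vein. In stenotic branch minus NIH vein they were -0.69 to 0.27 (S100a4 A_43_P11489), -0.16 to 0.17 (S100a4 A_44_P1060286), -1.20 to 0.11 (Snai1 A_44_P899293) and -0.68 to 0.84 (Tgfbr1). In NIH vein minus the other arrays 0 of the member differences changed sign or call under any alternative run. For this split the value table holds the same arrays on each side, so it is no separate check.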
